A study of Mus musculus with 4 samples.

Results

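The genes described here are subunits of the sodium pump and of the epithelial sodium channel in the spinal cord of mice with a nerve injury: the pump's beta subunits *Atp1b1*, *Atp1b2* and *Atp1b3*, the pump regulator *Fxyd7*, and the channel subunits *Scnn1a*, *Scnn1b* and *Scnn1g*. They were listed by name as genes of sodium transport under the control of the mineralocorticoid receptor and the kinase Sgk1, and every probe carrying one of these names was taken. The 7 genes had 7 probes, 1 each and each printed as 1 spot, among 39429 probes and 30222 gene names on the array.

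Male mice of the outbred stock ICR, aged 5 to 6 weeks, had a partial sciatic nerve ligation (PSL) after either a sham operation or an adrenalectomy (ADX), and spinal RNA was taken on day 7. The 4 conditions were sham+PSL ZT10, sham+PSL ZT22, ADX+PSL ZT10 and ADX+PSL ZT22, in hours of zeitgeber time with light from ZT0 to ZT12, and each had 1 array. Slices came from lumbar segments L4 to L5. Adrenalectomy removes corticosterone and also aldosterone, and the ADX mice drank 0.9% sodium chloride, so hormone loss and salt intake cannot be told apart in any ADX comparison. How many mice gave each RNA, and from which side of the cord relative to the ligation, is not given in the sources used here. All 4 arrays lay on 1 slide. With no replicate array, a ratio between 2 arrays holds the differences between mice and between slices as well as those between conditions, and the precision is limited by the number of arrays.

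The sodium pump moves sodium out of the cell and potassium in, and so restores the gradients that action potentials and the uptake of transmitters use up. Its alpha subunit carries the catalysis, its beta subunit is a glycoprotein that the alpha subunit needs to fold and to reach the membrane, and small FXYD proteins tune its affinity for ions. The epithelial sodium channel is built from alpha, beta and gamma subunits and lets sodium into cells of the kidney tubule and the distal colon. Aldosterone, through the mineralocorticoid receptor, raises its amount and activity there, partly through Sgk1, which keeps the ubiquitin ligase Nedd4l from removing the channel. In neural tissue the pump is abundant in neurons and glia.

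Each probe is 60 bases long. Of the 7, only the *Fxyd7* probe spans an exon junction, at chr7:31829612-31829767 (mm9, minus strand), where its 60 bases cover 156 bases of the genome, so that it reads spliced RNA. It is shown for that reason, in lower case throughout because the deposited files do not give the place of the junction.

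Fxyd7 probe: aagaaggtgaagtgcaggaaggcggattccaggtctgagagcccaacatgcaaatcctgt

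Promoter windows, the 250 bases before a start, were matched by symbol in RefSeq (GRCm38.p6) for 4 of the 7 genes, with 5 windows in all: *Atp1b1*, *Atp1b3* with 2 starts, *Scnn1b* and *Scnn1g*. None was found for *Atp1b2*, *Scnn1a* and *Fxyd7*. The windows were searched on both strands for AGAACA, the short motif that the glucocorticoid and mineralocorticoid receptors share, for the long receptor motif made of AGAACA, any 3 bases and TGTTCT, and for the E-box CACGTG that clock factors can bind. Of 32851 windows of this length, 16.1% held AGAACA, 6.02% held CACGTG, and 3 (0.00913%) held the long motif. AGAACA was in 0 of the 5 windows and CACGTG in 1. The 3 genes with a single start are printed here, none with a motif, to set *Atp1b1*, which was well above background on all 4 arrays, beside the 2 channel genes that were so on none. The *Atp1b1* window is chr1:164458356-164458605 (minus strand), that of *Scnn1b* is chr7:121864788-121865037 (plus strand) and that of *Scnn1g* is chr7:121734229-121734478 (plus strand).

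Atp1b1: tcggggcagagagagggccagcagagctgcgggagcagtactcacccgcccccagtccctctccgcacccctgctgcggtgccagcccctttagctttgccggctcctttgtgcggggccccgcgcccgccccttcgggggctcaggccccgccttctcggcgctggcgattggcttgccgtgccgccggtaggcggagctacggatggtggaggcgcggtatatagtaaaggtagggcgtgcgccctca

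Scnn1b: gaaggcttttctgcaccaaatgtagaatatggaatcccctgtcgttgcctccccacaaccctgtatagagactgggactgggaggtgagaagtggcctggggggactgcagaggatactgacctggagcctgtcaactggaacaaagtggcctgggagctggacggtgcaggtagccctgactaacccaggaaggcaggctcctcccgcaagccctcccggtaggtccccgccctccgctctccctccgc

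Scnn1g: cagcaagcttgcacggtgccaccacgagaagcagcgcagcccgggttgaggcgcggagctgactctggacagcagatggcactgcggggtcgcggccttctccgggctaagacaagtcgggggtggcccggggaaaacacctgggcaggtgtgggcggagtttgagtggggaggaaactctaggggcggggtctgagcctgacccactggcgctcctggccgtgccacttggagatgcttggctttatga

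The E-box stood in the window of the second *Atp1b3* start, from 221 to 216 bases before it (in capitals, chr9:96363919-96363948, minus strand). That window begins 466 bases downstream of the other *Atp1b3* start. For contrast, *Sgk1*, a target of both receptors, had 6 windows, of which 3 held AGAACA and 1 the long motif, from 189 to 175 bases before the start (in capitals, chr10:21993694-21993723, plus strand). The long motif there holds 2 of the 3 short motifs of that window, and the other, 242 to 237 bases before the start, overlaps an E-box at 246 to 241. A match describes letters in a window and is no evidence of binding, and a window without a match says only that the letters are not in it. For *Sgk1* the study had other evidence: by chromatin immunoprecipitation it reported glucocorticoid receptor bound to the promoter. Binding was not examined here.

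Atp1b3 E-box: ccgagcggggcaCACGTGctgccggttccc

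Sgk1 long motif: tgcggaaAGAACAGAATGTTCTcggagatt

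A level is the intensity in the authors' quantile-normalized table, on the linear scale and in arbitrary units, with a median of 105.46 on each of the 4 arrays. Probes differ in how strongly they bind, so levels are compared between arrays and not between genes. In what follows, a time ratio is the ZT10 level over the ZT22 level within an operation, and an operation ratio is the ADX level over the sham level within a time. Both were formed from single arrays. The image analysis flagged as well above background 27652 probes (70.1%) for ADX+PSL ZT10, 27097 (68.7%) for sham+PSL ZT10, 26387 (66.9%) for sham+PSL ZT22 and 25658 (65.1%) for ADX+PSL ZT22. Of the 7 genes, 5 were well above background on all 4 arrays, against 63.4% of all probes: *Atp1b1*, *Atp1b2*, *Atp1b3*, *Fxyd7* and *Scnn1a*. *Scnn1b* and *Scnn1g* were not on any.

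**Figure D1:**
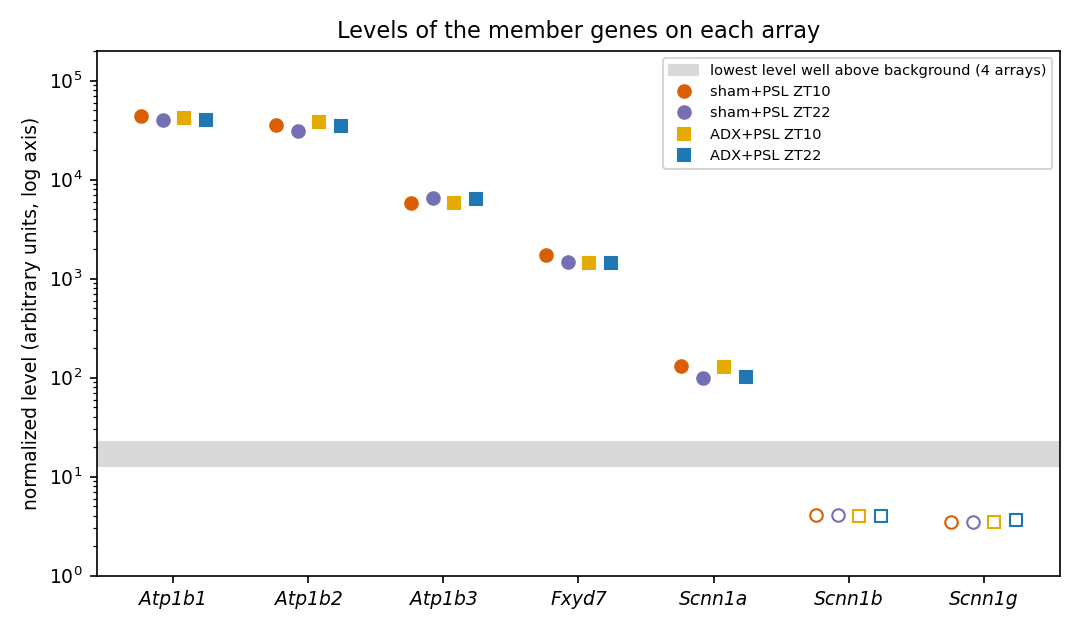
Level of each gene on each array (arbitrary units, log axis), 1 point an array, filled where the probe was well above background and open where it was not. The grey band runs over the lowest levels that were well above background on the 4 arrays, 12.8 to 22.2. *Scnn1b* and *Scnn1g* lie under it on all 4 arrays, and the points of each other gene lie close together.

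*Atp1b1* encodes the beta subunit found in most tissues, neurons included (probe at chr1:166368263-166368322, mm9). Its level was 43682 in sham+PSL ZT10, 40143 in sham+PSL ZT22, 41615 in ADX+PSL ZT10 and 39690 in ADX+PSL ZT22. Both ZT10 arrays were above both ZT22 arrays, but the whole range over the 4 arrays was 0.14 on the log2 scale. Its log2 time ratio was 0.12 for sham+PSL and 0.07 for ADX+PSL, and the spot error of each was 0.20. The spot error comes from the error that the image analysis gives each spot and covers the measurement alone, so all 4 arrays were within it of each other.

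*Atp1b2* encodes the beta subunit that is also an adhesion molecule of glia (chr11:69413253-69413312). Its levels were 35826 and 31088 in sham+PSL ZT10 and ZT22, and 37937 and 34564 in ADX+PSL. Each ADX array was above the sham array of its time, and each ZT10 array above the ZT22 array of its operation. The log2 time ratios were 0.20 in sham+PSL, the size of the spot error, and 0.13 in ADX+PSL, and the log2 operation ratios were 0.08 at ZT10 and 0.15 at ZT22. Without normalization between arrays the time ratios in ADX+PSL were -0.01 for *Atp1b2* and -0.05 for *Atp1b1*, so their sign there rests on the normalization.

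*Atp1b3*, the third beta subunit (chr9:96233316-96233375), was lower on both ZT10 arrays. Its level was 5736 in sham+PSL ZT10 and 6550 at ZT22, and 5741 in ADX+PSL ZT10 and 6433 at ZT22. The arrays of the same time nearly coincided: the log2 operation ratio was 0.0014 at ZT10 and -0.03 at ZT22. The log2 time ratio was -0.19 for sham+PSL and -0.16 for ADX+PSL (spot error 0.20), and was negative in all 7 ways of computing the levels in both operations. Without normalization between arrays, the log2 time ratios in ADX+PSL were negative for all 3 beta subunit genes, -0.28 for *Atp1b3*. None of their log2 ratios in the 4 comparisons passed 1.5-fold.

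*Fxyd7* encodes an FXYD regulator found in the brain. Its level was 1716 in sham+PSL ZT10, 1485 in sham+PSL ZT22, 1438 in ADX+PSL ZT10 and 1441 in ADX+PSL ZT22. The array of sham+PSL ZT10 was the highest, and the other 3 lay within the spot error of each other. The log2 time ratio was 0.21 for sham+PSL and -0.0032 for ADX+PSL, and the log2 operation ratio was -0.25 at ZT10 and -0.04 at ZT22. The time ratio in sham+PSL exceeded that in ADX+PSL by 0.21 on the log2 scale, less than the spot error of that difference, 0.29.

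*Scnn1a* encodes the alpha subunit of the channel, which the beta and gamma subunits need for a working channel (chr6:125294843-125294902, plus strand). Its levels were 129.7 and 98.1 in sham+PSL ZT10 and ZT22, and 127.8 and 102.2 in ADX+PSL. The 2 ZT10 arrays were close to each other and above the 2 ZT22 arrays, which were also close to each other. Against ZT22, the ZT10 level of *Scnn1a* was 1.32-fold higher in sham+PSL (log2 ratio 0.40, spot error 0.21), and in ADX+PSL its log2 ratio was 0.32 (spot error 0.22). The log2 operation ratio was -0.02 at ZT10 and 0.06 at ZT22, within the spot error. The time ratios of the operations differed by 0.08 on the log2 scale, with a spot error of 0.30. Over the 7 ways of computing the levels the time ratio ranged from 0.28 to 0.48 in sham+PSL and from 0.23 to 0.34 in ADX+PSL. Among the 5832 probes whose mean level was within 2-fold of that of *Scnn1a*, 18.7% had a log2 ratio at least as large in sham+PSL and 24.9% in ADX+PSL, and 6.5% had a log2 ratio of at least 0.32 in size, in the same direction, in both operations. The like share, at the smaller time ratio of each gene and among probes of its level, was 5.7% for *Atp1b2*, 7.92% for *Atp1b3* and 18.6% for *Atp1b1*.

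*Scnn1b* (chr7:129061584-129061643) and *Scnn1g* (chr7:128911932-128911991) encode the beta and gamma subunits, which carry the motif that Nedd4l binds as the alpha subunit does. The levels of *Scnn1b* were 4.07, 4.14, 4.01 and 4.05 in the order sham+PSL ZT10 and ZT22 and ADX+PSL ZT10 and ZT22. Those of *Scnn1g* were 3.48, 3.52, 3.46 and 3.63 in the same order. The lowest value in the whole table was 3.36, and neither probe was significantly above background on any array. No ratio is given for them. Their RNA was not detectable with these probes, which does not show that it was absent.

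**Figure D2:**
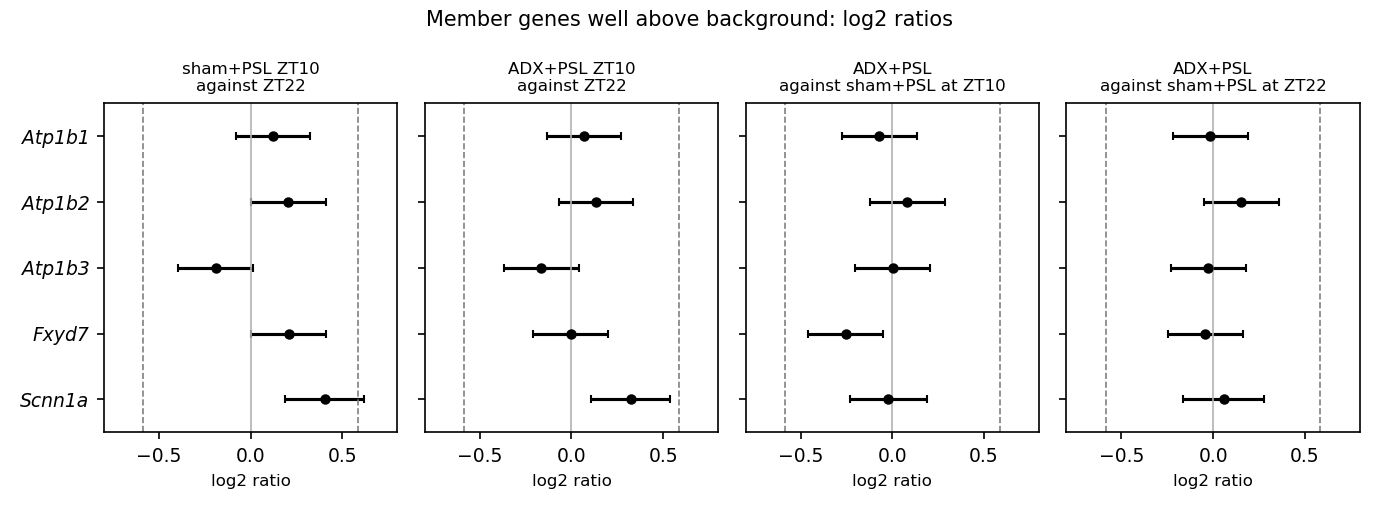
Log2 ratio of each of the 5 genes well above background in the 4 comparisons (1 array a condition). Bars are the spot error to each side, and dashed lines mark 1.5-fold. No point reaches a dashed line, and *Scnn1a* lies farthest from 0 in both comparisons of time, at 0.40 and 0.32.

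Past 1.5-fold in either direction were 0 of the 7 genes in each comparison, 2 of them being at background. Over all probes whose brighter array was well above background, 10.6% passed 1.5-fold between ZT10 and ZT22 in sham+PSL, 9.06% in ADX+PSL, 11.6% between ADX and sham at ZT10 and 10.2% at ZT22. At a lower limit, a log2 ratio of 0.322 in size, *Scnn1a* alone passed in the 2 comparisons of time, with 0.323 in ADX+PSL just past the limit, and 0 of the 7 passed in the 2 comparisons of operation. Computed in other ways, *Scnn1a* lost this call: in ADX+PSL it had 0.318 with the scanner signal quantile-normalized over 4 arrays and 0.24 with normexp. Normexp here adds an offset of 50, which by itself pulls the ratios of dim probes toward 0. With the 75th percentile shift *Scnn1a* was past the limit in ADX+PSL, at 0.34. In sham+PSL it had 0.318 with normexp and 0.28 with the mean signal, both under the limit. Of all probes, 24.8% passed this lower limit between times in sham+PSL, 21.3% in ADX+PSL, 24.8% between operations at ZT10 and 24.5% at ZT22. Of the 7 genes, 5 could be counted, and 1 of 5 is near these shares. By the limits of the study's methods, a Z-score of 2 or more with a ratio of 2 or more, or their lower counterparts, 0 of the 7 genes were called, against 4.23% and 3.77% of all probes for time in sham+PSL and ADX+PSL and 4.52% and 3.66% for operation at ZT10 and ZT22.

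An additive fit of operation and time over all 4 arrays with limma called 0 of the 5 genes tested for either factor, and 0 of 28845 probes (0%) for either. It has 1 residual degree of freedom and its residual is how far the effect of time differed between sham and ADX. The SE of each gene is moderated by eBayes with a variance pooled over all probes, so it does not rest on that residual alone. The largest difference was that of *Scnn1a* between times, 0.36 on the log2 scale (SE 0.12), higher at ZT10 in both operations, with an adjusted p of 0.932. For operation, *Fxyd7* had the largest difference, -0.15 (SE 0.13), lower in ADX at both times, with an adjusted p of 0.907, but without normalization its log2 operation ratio at ZT22 was 0.07. At an unadjusted p under 0.05 there were 1803 probes (6.25%) for operation and 1420 (4.92%) for time, and 0 of the 5 genes for both.

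By the root mean square difference of their centred log2 levels over the 4 arrays, the 5 genes most like *Scnn1a* among 19054 were *8430408G22Rik* (0.011), *Sez6l2* (0.011), *Nkapl* (0.021), *Nog* (0.021) and *Rasgef1a* (0.022). *Nog*, which encodes the BMP antagonist noggin, had levels of 74.5 and 56.4 in sham+PSL ZT10 and ZT22 and 74.6 and 60.8 in ADX+PSL. With 4 arrays the measure is coarse: 2821 genes lay within 0.14, the median spot error of a log2 level.

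A list of 8 further pump genes held *Atp1a4*, *Atp1b4* and the FXYD regulators from *Fxyd1* to *Fxyd6*. Of these, 4 were well above background on all 4 arrays, and *Atp1b4* and *Fxyd4* on none. Of the genes other than *Atp1a4*, 0 passed 1.5-fold by their brightest probe. By a brighter array well above background, the count used for all probes, *Atp1a4* passed in each comparison, 1 of the 6 genes that could be counted. Of all probes, 10.6% and 9.06% passed for time in sham+PSL and ADX+PSL, and 11.6% and 10.2% for operation at ZT10 and ZT22. *Fxyd1*, phospholemman, had levels of 12676 and 13899 in sham+PSL ZT10 and ZT22 and 16650 and 13287 in ADX+PSL. Its highest array was ADX+PSL ZT10, with a log2 operation ratio of 0.39. *Fxyd6* lay between 14118 and 14762 on the 4 arrays, *Fxyd5* between 283.9 and 344.6, and *Fxyd2* between 529.4 and 602.9. *Fxyd3* lay between 23.4 and 33.0 and was well above background on 3 arrays. *Atp1a4*, known from sperm, was near background, with 7.63 and 38.5 in sham+PSL and 15.6 and 23.6 in ADX+PSL. In sham+PSL it was at least 2.59-fold lower at ZT10, taken against the lowest level well above background on that array, and the comparison of operations at ZT10, with ADX above sham, gave a lower bound of 1.05-fold, which does not show a difference past 1.5-fold. Its other log2 ratios, -0.60 for time in ADX+PSL and -0.70 for operation at ZT22, shrank to -0.15 and -0.22 with normexp background correction. The normexp offset alone shrinks ratios at such low levels. The median log2 ratio of the 4 genes was -0.09 and -0.07 for time, sham+PSL before ADX+PSL, and 0.11 and 0.02 for operation at ZT10 and ZT22, against medians within 0.0113 of 0 over all probes well above background on both arrays.

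Regulators of the channel included genes past 1.5-fold. Of 23 listed, 20 were well above background on all 4 arrays. Counted as all probes were, by a brighter array well above background, 1 was higher and 3 lower past 1.5-fold at ZT10 in sham+PSL (of 20), 1 higher and 1 lower at ZT10 in ADX+PSL (of 22), 1 higher and 1 lower in ADX at ZT10 (of 22), and 1 higher and 1 lower in ADX at ZT22 (of 20). Of all probes, 10.6%, 9.06%, 11.6% and 10.2% passed. The gene higher in ADX+PSL ZT10 in both comparisons of that array was *Prss8*, the protease prostasin, with 29.7 there and 11.9 to 23.7 elsewhere, where it was not well above background. Taken against the lowest level well above background, its lower bounds were 1.99-fold against sham+PSL ZT10 and 1.34-fold against ADX+PSL ZT22, so the second is not shown to pass. A second *Prss8* probe was well above background on no array, with 10.1 in ADX+PSL ZT10 and 3.70 to 3.83 elsewhere. Past 1.5-fold, *Sgk1* was the single gene of the list higher at ZT10 in sham+PSL and the single one lower in ADX at ZT10, with levels of 3889 and 1748 in sham+PSL ZT10 and ZT22 and 1836 and 1453 in ADX+PSL. Beside it, *Scnn1a* had 129.7 in sham+PSL and 127.8 in ADX+PSL at ZT10.

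*Hsd11b1* encodes the enzyme that regenerates active corticosterone inside cells. Its levels were 1659 and 2847 in sham+PSL ZT10 and ZT22 and 1892 and 2799 in ADX+PSL. It was lower at ZT10 in both operations, with log2 ratios of -0.78 and -0.56, the second past 1.5-fold only without normalization between arrays (-0.67). *Hsd11b2*, the enzyme that inactivates corticosterone and so keeps the mineralocorticoid receptor of the kidney for aldosterone, was well above background on no array, with 7.34 and 3.78 in sham+PSL and 4.52 and 3.83 in ADX+PSL.

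The kinase gene *Wnk4* had levels of 59.1 and 83.8 in sham+PSL ZT10 and ZT22 and 64.5 and 128.1 in ADX+PSL. Its log2 time ratio was -0.50 for sham+PSL and -0.99 for ADX+PSL, and with normexp background correction -0.23 and -0.54. Its log2 operation ratio at ZT22 was 0.61, and 0.38 with normexp. *St14*, which encodes the protease matriptase, had 63.4 and 97.4 in sham+PSL and 61.4 on both ADX+PSL arrays, so that sham+PSL ZT22 stood above the other 3. Its log2 time ratio in sham+PSL was -0.62, and -0.32 with normexp, and its log2 operation ratio at ZT22 was -0.67, and -0.33 with normexp. At the levels of *Wnk4* and *St14* the normexp offset alone shrinks ratios. *Cnksr3*, a scaffold that brings Sgk1 to the channel, had 369.0 and 583.5 in sham+PSL and 431.7 and 418.6 in ADX+PSL, again highest in sham+PSL ZT22. Its log2 time ratio in sham+PSL was -0.66, and it was short of 1.5-fold at -0.58 with normexp, -0.57 with the mean signal and -0.58 without normalization.

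The brightest probes among the regulators were those of *Tsc22d3*, *Wnk1* and *Nedd4*. *Tsc22d3*, the glucocorticoid-induced leucine zipper, had 12089 and 10297 in sham+PSL and 11935 and 9929 in ADX+PSL. Like *Scnn1a*, it was higher at ZT10 in both operations with little difference between them, at log2 ratios of 0.23 and 0.27. *Wnk1* had 10028 and 12038 in sham+PSL and 10249 and 12822 in ADX+PSL, and *Nedd4* 8995 and 8692 in sham+PSL and 8712 and 10083 in ADX+PSL. The mineralocorticoid receptor gene *Nr3c2*, named after its values were seen, had 129.9 and 123.7 in sham+PSL and 90.9 and 103.0 in ADX+PSL. Its ADX+PSL arrays were both under its sham+PSL arrays, by log2 ratios of -0.51 at ZT10 and -0.26 at ZT22, neither past 1.5-fold.

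**Figure D3:**
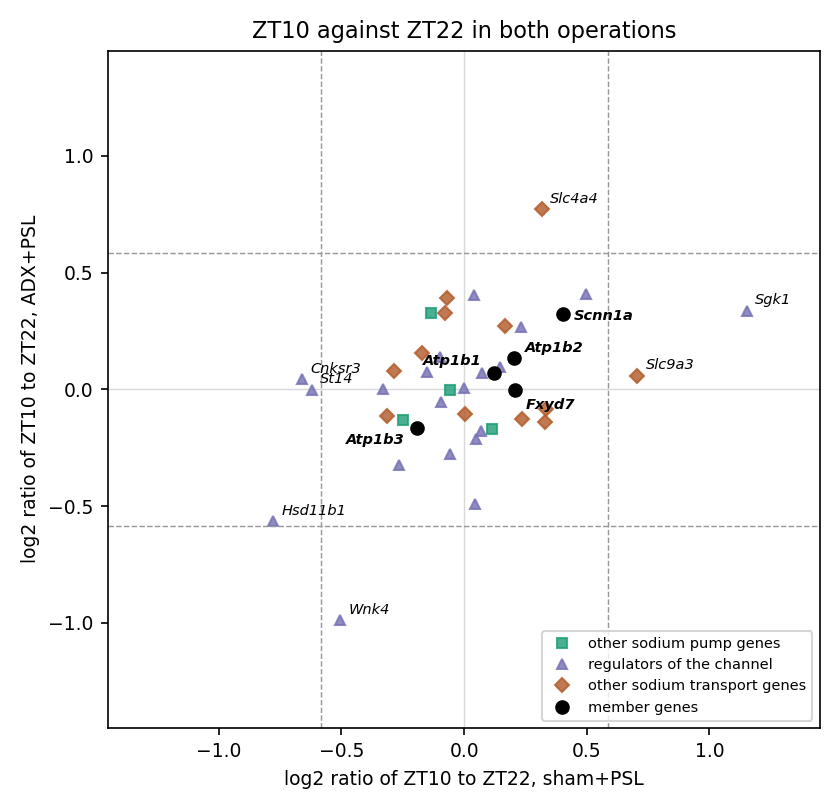
Log2 time ratio, ZT10 over ZT22, of sham+PSL (x axis) and of ADX+PSL (y axis) for the genes well above background on all 4 arrays, 1 point a gene by its brightest probe. Black points are the 5 genes of the 7, and dashed lines mark 1.5-fold. The black points lie inside the dashed lines, and 7 other genes lie outside on at least 1 axis: *Sgk1*, *Slc9a3*, *Hsd11b1*, *Cnksr3* and *St14* on that of sham+PSL, and *Wnk4* and *Slc4a4* on that of ADX+PSL.

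Of 16 other genes of sodium, potassium and chloride transport, 12 were well above background on all 4 arrays. Of the 13 that could be counted, 1 was higher and 0 lower past 1.5-fold at ZT10 in sham+PSL, 1 higher and 1 lower at ZT10 in ADX+PSL, 1 higher and 0 lower in ADX at ZT10, and 2 higher and 1 lower in ADX at ZT22, beside 10.6%, 9.06%, 11.6% and 10.2% of all probes. *Slc4a4*, the sodium bicarbonate cotransporter of astrocytes, had 4885 and 3924 in sham+PSL ZT10 and ZT22 and 3784 and 2219 in ADX+PSL. The ADX+PSL array at ZT22 stood under the other 3, and a second bright probe read 4623, 3828, 3559 and 2036 in the same order. Its dim probe ran otherwise, with 50.6, 71.7, 83.2 and 69.0. *Kcnj10*, the potassium channel of astrocytes, had 64294 and 79925 in sham+PSL and 67532 and 73103 in ADX+PSL. *Slc8a3*, a sodium-calcium exchanger, lay between 25519 and 31065, and *Slc12a2*, the chloride-loading cotransporter NKCC1, between 8924 and 11240.

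The other genes past 1.5-fold in that list were dim. The normexp offset alone pulls ratios at such levels toward 0, so smaller values with it were in part fixed beforehand. *Cftr*, a chloride channel, had 28.5 and 28.4 in sham+PSL and 48.3 and 51.9 in ADX+PSL, higher in ADX at both times by log2 ratios of 0.76 and 0.87, which became 0.40 and 0.33 with normexp. *Slc9a3*, a sodium-proton exchanger, had 60.8 and 37.3 in sham+PSL and 46.8 and 44.9 in ADX+PSL, with a log2 time ratio in sham+PSL of 0.71 that became 0.24 with normexp, and its second probe was at background on all 4 arrays. *Asic3*, an acid-sensing channel of the same superfamily as the epithelial sodium channel, had 23.5 and 20.3 in sham+PSL and 21.8 and 34.3 in ADX+PSL, with a log2 ratio for time in ADX+PSL of -0.65 that became -0.17 with normexp. It was also among the genes counted as higher in ADX at ZT22, but its sham+PSL ZT22 level was not well above background. That level, 20.3, was over the lowest one well above background on the array, 18.4, so the lower bound of 1.69-fold was taken against it. A second, dimmer *Asic3* probe had 17.0 at ZT10 and 13.2 at ZT22 in ADX+PSL. Its ZT22 value was not well above background, so no direction is read from it. The kidney transporters *Slc12a1* and *Slc12a3* and the channel *Kcnj1* were well above background on no array.

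The tissue label fits its markers: the neuron, astrocyte and microglia lists were well above background on all 4 arrays in every gene. The neuron list had summed levels of 250021 and 227473 in sham+PSL ZT10 and ZT22 and 236389 and 215220 in ADX+PSL, led by *Nefl*, with 6 of 6 genes higher at ZT10 in both operations. The list had a median log2 time ratio of 0.08 for sham+PSL and 0.14 for ADX+PSL. The microglia list had sums of 27474 and 36815 in sham+PSL and 24200 and 28472 in ADX+PSL, led by *Csf1r*, with 0 of 5 genes higher at ZT10 in either operation. The astrocyte list, led by *Gfap*, had sums of 42821 and 48308 in sham+PSL and 35903 and 46423 in ADX+PSL, with 2 of 6 genes higher at ZT10 in sham+PSL, against 4 of 6 in ADX+PSL. Its sum in ADX+PSL followed *Gfap*, with 8565 at ZT10 and 18028 at ZT22, while the median log2 time ratio of the list there was 0.07. In whole tissue, fewer cells of a type and less RNA per cell cannot be told apart, and the part of cell composition in the values of the 7 genes was not tested.

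Motor neuron markers, led by *Slc18a3*, summed to 10140 and 9156 in sham+PSL ZT10 and ZT22 and 8559 and 7710 in ADX+PSL. Most of each sum was *Slc18a3*, with 8844, 7795, 7280 and 6567 in the same order. Of the 4 genes, 2 were higher in ADX than in sham at ZT10 (median log2 ratio -0.0085), against 0 at ZT22 (-0.23). Between times, 2 were higher at ZT10 after the sham operation (0.06) and 4 after adrenalectomy (0.15). Endothelial markers, led by *Ly6c1*, summed to 15976 and 12863 in sham+PSL and 14627 and 18652 in ADX+PSL. The higher ZT10 sum of sham+PSL followed *Ly6c1*, which had 8761 at ZT10 against 4893 at ZT22. Only 2 of the 5 genes were higher at ZT10 there, and the median log2 time ratio was -0.02. For ADX+PSL the count was also 2 of 5, with a median of -0.49. Ependymal and choroid plexus cells line the fluid spaces, where sodium transport is intense. Ependymal markers, led by *Rarres2*, summed to 2615 and 2514 in sham+PSL and 2773 and 2393 in ADX+PSL. Of the 5 genes, 2 were higher at ZT10 in sham+PSL (median log2 ratio -0.12) and 5 in ADX+PSL (0.17). At ZT10, 4 of 5 were higher in ADX than in sham (0.29), but *Rarres2* had 775 in ADX+PSL against 1082 in sham+PSL. At ZT22, 1 of 5 was higher in ADX (-0.10). Choroid plexus markers, led by *Clic6*, summed to 426.2 and 403.6 in sham+PSL and 449.0 and 377.0 in ADX+PSL, and the defining *Ttr* and *Kcne2* were well above background on no array.

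Markers of tissue around the cord differed far more between arrays than the 7 genes did. Meningeal fibroblast markers, led by *Dcn*, summed to 14570 and 12624 in sham+PSL ZT10 and ZT22 and 4526 and 5027 in ADX+PSL, with 0 of 6 higher in ADX at either time. Schwann cell markers, led by *Prx*, summed to 579.7 and 312.3 in sham+PSL and 73.1 and 56.8 in ADX+PSL. Of 5 listed, 4 genes were on the array, 1 of them well above background on all 4 arrays, and *Pmp2* on none. *Prx* alone had 465.9, 246.6, 40.9 and 36.3 in the same order. Skeletal muscle markers, led by *Myh4*, summed to 1915 in sham+PSL ZT10 against 135.0, 140.1 and 137.8 on the other 3 arrays. *Myh4* had 811.1 in sham+PSL ZT10 and lay near the floor elsewhere, at 3.63 to 4.01. Red blood cell markers, led by *Hba-a2*, summed to 128729 and 17931 in sham+PSL and 90028 and 81049 in ADX+PSL. Against ratios of 0.311 and 0.398 for the meningeal sum in ADX relative to sham, the operation ratio farthest from 1 among the 5 genes was that of *Fxyd7* at ZT10, 0.838.

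**Figure D4:**
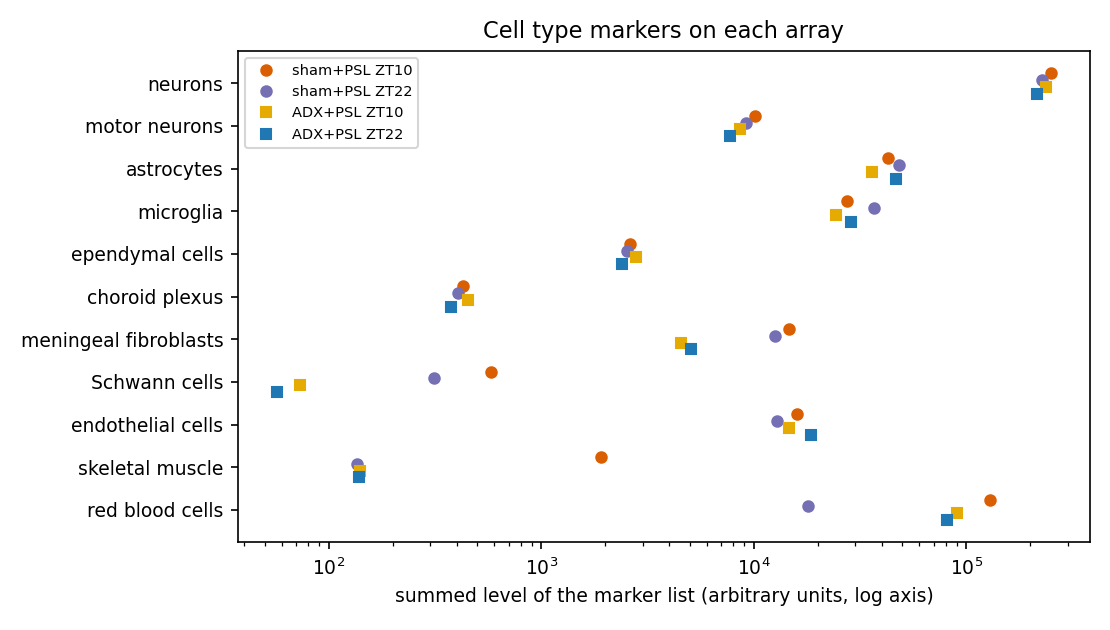
Summed level of each cell type's marker list on each array (arbitrary units, log axis), 1 point an array. The neuron sums stay close over the 4 arrays, while meningeal fibroblasts and Schwann cells are lower on both ADX+PSL arrays, skeletal muscle is high in sham+PSL ZT10 (1915) and red blood cells are low in sham+PSL ZT22 (17931).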

How the data were processed

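Spinal RNA of 4 conditions was measured on 1 Agilent 1-colour array each. The authors deposited a table of intensity values, log2-transformed, quantile-normalized over the 4 arrays and returned to the linear scale. The authors also deposited, for each array, the intensity of each spot (processed signal with its error, mean signal and background) and flags of other kinds, such as well above background. The processing notes name Feature Extraction 9.5.1.1 and the file headers 10.7.1.1. Each array had 44397 spots, 1377 of them controls, and 0 were saturated. Each table column was checked against the scanner values: its rank correlation with its own array rounded to 1, and with another array it was at most 0.979.

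Levels came from the table. Log2 ratios were formed where both arrays were well above background, and a probe counted toward a fold limit if the brighter array was. A gene was read by its brightest probe. Python 3.11.15 with numpy 2.4.6, pandas 2.3.3 and matplotlib 3.10.9 was used, and the fit used limma 3.58.1 in R 4.3.3 with eBayes and Benjamini-Hochberg adjustment over the 28845 probes that were well above background on 1 array or more. The fit and the counts were tested on simulated data with known changes much larger than any of the genes described here. That checked the code, not whether changes of their size would be found. No condition has a replicate array, so the comparisons of 2 arrays carry no test.

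Named were the 7 genes, every gene of a list of 8 further pump genes, and of 2 further lists (channel regulators, other transport) the genes past 1.5-fold with both arrays well above background and the 3 brightest well above background on all 4 arrays, besides the leading gene of each of the 11 marker lists and the 5 genes most like the member with the widest range. *Nr3c2*, *Hsd11b2*, *Prss8*, *Slc12a1*, *Slc12a3* and *Kcnj1* were named after their values were seen. Some genes of the lists are not reported here. The members and lists were chosen with earlier results of these data known. Sequences are from RefSeq (GRCm38.p6) and the deposited probes (mm9).

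The alternatives were the scanner signal quantile-normalized over 4 or 2 arrays, shifted by its 75th percentile or not normalized, normexp correction (offset 50), the mean signal, the mean of all probes of a gene, other filters, log2 fold limits of 0.32 and 1, Z-scores in 20 bins of level, and, for the fit, an intensity trend, 1 factor alone and probes well above background on all 4 arrays.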

Additional observations from a re-analysis of the deposited data

Results flagged for a closer look

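*Cnksr3*, the scaffold gene among the channel regulators, differed in direction between the times. The log2 ratio of ADX to sham was 0.23 at ZT10 and -0.48 at ZT22, a difference of 0.71 on the log2 scale. Each effect rests on 1 array a condition, neither passed 1.5-fold, and the difference was not tested.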

How the results depend on the processing

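With a log2 limit of 0.32 in place of 0.58, the count of the 7 genes was 1 in place of 0 for time in sham+PSL and 1 in place of 0 for time in ADX+PSL, *Scnn1a* in both, because the limit is lower. Every other alternative gave the same counts. The 20 log2 ratios of the 5 genes under 7 alternatives gave 140 values, and 0 of them moved by more than the spot error. That error is larger than most of these ratios, so a ratio can change sign within it, and several did. The log2 operation ratio of *Atp1b1* at ZT10 kept its sign in 4 of 7 alternatives, ranging from -0.07 to 0.06. Of these alternatives the mean over probes changes nothing for genes with 1 probe. Among other named genes of the pump, regulator and transport lists, *Nr3c2* not included, 29 of 546 values moved by more than the spot error. Most were of dim genes under other background corrections. These, the normexp offset and the mean signal with its background left in, shrink ratios of dim probes by construction. The log2 operation ratio of *Hsd11b1* at ZT22 turned from -0.02 to 0.09 without normalization. Without normalization the median log2 ratio of all probes was -0.10 for time in ADX+PSL and 0.12 for operation at ZT22.

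The additive fit called 0 of the 5 genes under each alternative. Over all probes its count for operation was 0, and 39 with an intensity trend, 13 with the fit kept to the probes well above background on every array and 6 without the time term. For time it was 0, and 14, 11 and 0. The cause was not tested. For *Scnn1a* and time, the adjusted p ranged from 0.724 to 0.970 over the alternatives, and its unadjusted p was under 0.05 with the trend, with the kept probes and without the operation term, at an effect of 0.36 in each. Signal over background limits *Scnn1b* and *Scnn1g*, for which no ratio is given. Without a filter on background the counts past 1.5-fold were still 0 of 7. The genes that this adds, *Scnn1b* and *Scnn1g*, lay near the lowest value on all arrays, so the count says nothing of them. No array was left out, because each condition has 1.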
